A study of Mus musculus with 1 sample.

Results

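The replication-dependent histone genes supply the bulk histones that package newly made DNA. In the deposited table they were taken as every row whose gene symbol begins with Hist1h, Hist2h, Hist3h or Hist4h, where the digit names the gene cluster and the letters after it the histone type. The rule reads gene symbols and uses no measured value. It found 75 rows with 68 symbols among the 23386 symbols of the table. Pairs of symbols with 2 rows each and equal values in both rows were counted once. This left 65 genes or gene pairs: 6 of H1, 16 of H2A, 18 of H2B, 12 of H3 and 13 of H4. The member Hist3h2bb-ps is annotated as a pseudogene.

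Histones H2A, H2B, H3 and H4 form the protein core of the nucleosome, and H1 binds the DNA that links nucleosomes. The genes that supply them during DNA synthesis lie in clusters, are mostly intronless and are transcribed in S phase with the help of the coactivator NPAT. Their mRNAs end in a stem-loop in place of a poly(A) tail. The stem-loop is bound by the protein SLBP, and the end is made by the U7 snRNP and a cleavage complex shared with polyadenylated mRNAs. Replication-independent variants such as H3.3, H2A.Z and H1.0 come from genes elsewhere, with polyadenylated mRNAs.

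The data are the RNA-seq reads of 1 culture of mouse fibroblasts, grown out in vitro from pancreas and extracted with TRIzol as total RNA. The labels call its cells normal fibroblasts from normal pancreas of mixed (C57BL/6 and BALB/c) background and give the genotype tf1acre-;KrasWT;Tgfrb2flox/flox. The series set such fibroblasts against those of pancreas tumours. With 1 library in hand, that labelled normal fibroblast, no conditions are compared, there is no replicate and no test was run. The labels do not say how many animals were pooled.

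The name and value column of the deposited table carry a CAF code, which disagrees with that label, and whether the cells are normal or cancer-associated fibroblasts cannot be told apart here. The table held 52494688 whole reads, so that 1 read is 0.0190 reads per 1000000 (CPM). Fibroblast markers (Vim, Thy1, Col1a1, Col1a2, Col3a1, Pdgfra, Pdgfrb, Dcn) lay at 366 to 3021 CPM, 8 of 8 detected. Markers of dividing cells (Mki67, Top2a, Cdk1) lay at 267 to 583 CPM, and 4 of 4 mesothelial markers at 90.7 to 218 CPM. Of 5 acinar markers 3 were detected, up to 87.2 CPM; epithelial, leukocyte and endothelial markers lay at or under 11.8 CPM, none of them at 0. The part of those other cells in the levels given here was not tested.

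The ends of the members are shown first, because the stem-loop is the feature that sets these mRNAs apart from other mRNAs. The reference transcripts of GENCODE M21 were searched, within 100 bases after the stop codon, for an arm of 6 bases that begins with GG, goes on with pyrimidines and ends in T, a loop of 4 bases with T as the first and the third, and the reverse complement of the arm. This is the known form of the histone stem-loop, and at least 26 bases after the stop codon were required. It was found in 46 of the 50 members that had them (92.0%), lying 22 to 59 bases after the stop codon. Of 13725 other coding genes with as many bases, 2 had one (0.0146%), H2afx and H2bfm. Of the 8 distinct sequences 5 are shown, chosen to give both kinds of arm that most members carry and several loops, with the paired arms in capitals and the loop in lower case.
Hist1h1c (chr13:23739512-23739527, + strand): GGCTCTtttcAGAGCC
Hist1h2bb (chr13:23747203-23747218, + strand): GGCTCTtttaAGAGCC
Hist1h4h (chr13:23531458-23531473, + strand): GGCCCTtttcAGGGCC
Hist2h4 (chr3:96262939-96262954, - strand): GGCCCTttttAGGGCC
Hist1h3g (chr13:23535889-23535904, + strand): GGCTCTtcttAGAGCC

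The sequence shown for Hist1h1c was shared by 26 members of types H1, H2A, H2B and H3. That of Hist1h4h was shared by 7 members, all of them H4 genes, and differs from the first in the arms. The whole sequence shown for Hist1h2bb has the same arms as that of Hist1h1c and another loop, and was found in 6 members of H1, H2B and H3. That of Hist2h4 was found in 2 H4 genes and that of Hist1h3g in 1 member. Among the members with at least 26 bases, none was found after Hist1h1a, Hist1h2bc, Hist2h2be and Hist2h3b. For Hist1h1a 48 and for Hist2h3b 37 bases could be searched, so a stem-loop farther out would have been missed. The reference transcripts of the other 17 coding members were too short to search.

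The windows before the start of H2B genes are shown next, because they split by one motif. Each runs over the 120 bases before the RefSeq start (GRCm38.p6), and capitals mark the octamer ATTTGCAT, the TATA box TATAAA and, as the third motif, the CCAAT box, each on either strand. No match of one overlaps a match of another in the windows shown. The first 4 genes had the octamer and the last 2 did not. Those 4 are the H2B members with the highest level per length, and the windows were picked with the levels known. Not shown are Hist1h2ba, a low gene whose octamer lies outside the 120 bases, and Hist1h2bj, the highest without it. Only exact matches counted: the Hist1h2bf window holds atttgaat, which differs from the octamer in a single letter.
Hist2h2bb (chr3:96269580-96269699, + strand): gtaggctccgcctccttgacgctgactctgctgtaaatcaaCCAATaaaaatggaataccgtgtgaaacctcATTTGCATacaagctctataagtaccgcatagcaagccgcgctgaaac
Hist1h2bg (chr13:23571280-23571399, + strand): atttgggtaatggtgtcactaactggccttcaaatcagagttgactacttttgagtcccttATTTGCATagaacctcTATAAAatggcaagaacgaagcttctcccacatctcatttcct
Hist1h2bb (chr13:23746614-23746733, + strand): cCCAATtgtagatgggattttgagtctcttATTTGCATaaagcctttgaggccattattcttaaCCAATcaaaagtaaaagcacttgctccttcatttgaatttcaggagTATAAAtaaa
Hist1h2bk (chr13:22035701-22035820, + strand): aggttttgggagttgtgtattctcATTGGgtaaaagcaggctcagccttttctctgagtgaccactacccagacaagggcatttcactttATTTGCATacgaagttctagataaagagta
Hist1h2bf (chr13:23574208-23574327, - strand): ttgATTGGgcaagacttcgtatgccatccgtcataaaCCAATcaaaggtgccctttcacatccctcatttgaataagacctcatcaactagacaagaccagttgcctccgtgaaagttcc
Hist1h2bn (chr13:21753956-21754075, + strand): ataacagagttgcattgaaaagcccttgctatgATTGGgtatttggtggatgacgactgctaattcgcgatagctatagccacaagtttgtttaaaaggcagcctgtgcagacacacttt

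Over the window from 250 bases before to 50 after the start, matched for 62 members, TATAAA was found on either strand in 35 (56.5%, against 14.2% of 27025 RefSeq promoters). CCAAT was found in 53 (85.5%, against 37.9%). It was in the windows of all 6 H1, 18 H2A, 16 H2B and 10 H3 genes matched, and in 3 of 12 H4 genes. The octamer was found in 13 (20.97%, against 1.75%), of which 7 were H2A genes and 6 H2B genes, with none among the H1, H3 and H4 genes matched. Windows of H2A and H2B genes that lie head to head overlap, so the same octamer can count for both, as for Hist1h2ae and Hist1h2bg. The octamer is the sequence that the transcription factor Oct-1 (Pou2f1) binds, known from H2B promoters. A match describes the letters in the window and is not a measured binding site.

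Nearly all members were detected. Of the 65, 63 had at least 10 reads, beside 63.9% of the 23383 genes of the table counted in this way. The other 2 were Hist1h2ba, a testis H2B gene, with 4 reads and Hist2h3b with 6. On the scale of reads per 1000 bases of transcript and 1000000 reads (RPKM), 47 of 65 exceeded 4.95 RPKM, the median of the coding genes detected, beside 31.5% of all genes with a known length. With the shortest coding transcript as the length, 25 of 65 did. The members together held 104117 reads, or 0.198% of the library (95% Clopper-Pearson interval 0.197 to 0.1995%). Intervals given here are for counting error only, and reads are not independent molecules.

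Linker histone genes held the largest share of reads of the 5 types. H1 genes took 43601 reads, 41.9% of all member reads (95% interval 41.6 to 42.2%). H2B genes took 19825 reads (19.0%), H4 genes 18160 (17.4%), H3 genes 11823 (11.4%) and H2A genes 10708 (10.3%). Per length, which allows for the longer H1 transcripts, the shares of the summed RPKM were 31.5% for H1, 23.6% for H4, 20.9% for H2B, 12.6% for H3 and 11.5% for H2A. With the GENCODE lengths for every gene, H2B led with 28.1%, ahead of H1 with 22.7%, and 15 members moved by more than 1.5-fold. There 4 of the 6 H1 genes are longer (Hist1h1d 7425 bases against 776, Hist1h1c 1560 against 725), while Hist2h2bb is shorter (381 against 493). The GENCODE transcript of Hist2h2bb ends at the stop codon, so that length leaves out the sequence beyond it.

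**Figure D1:**
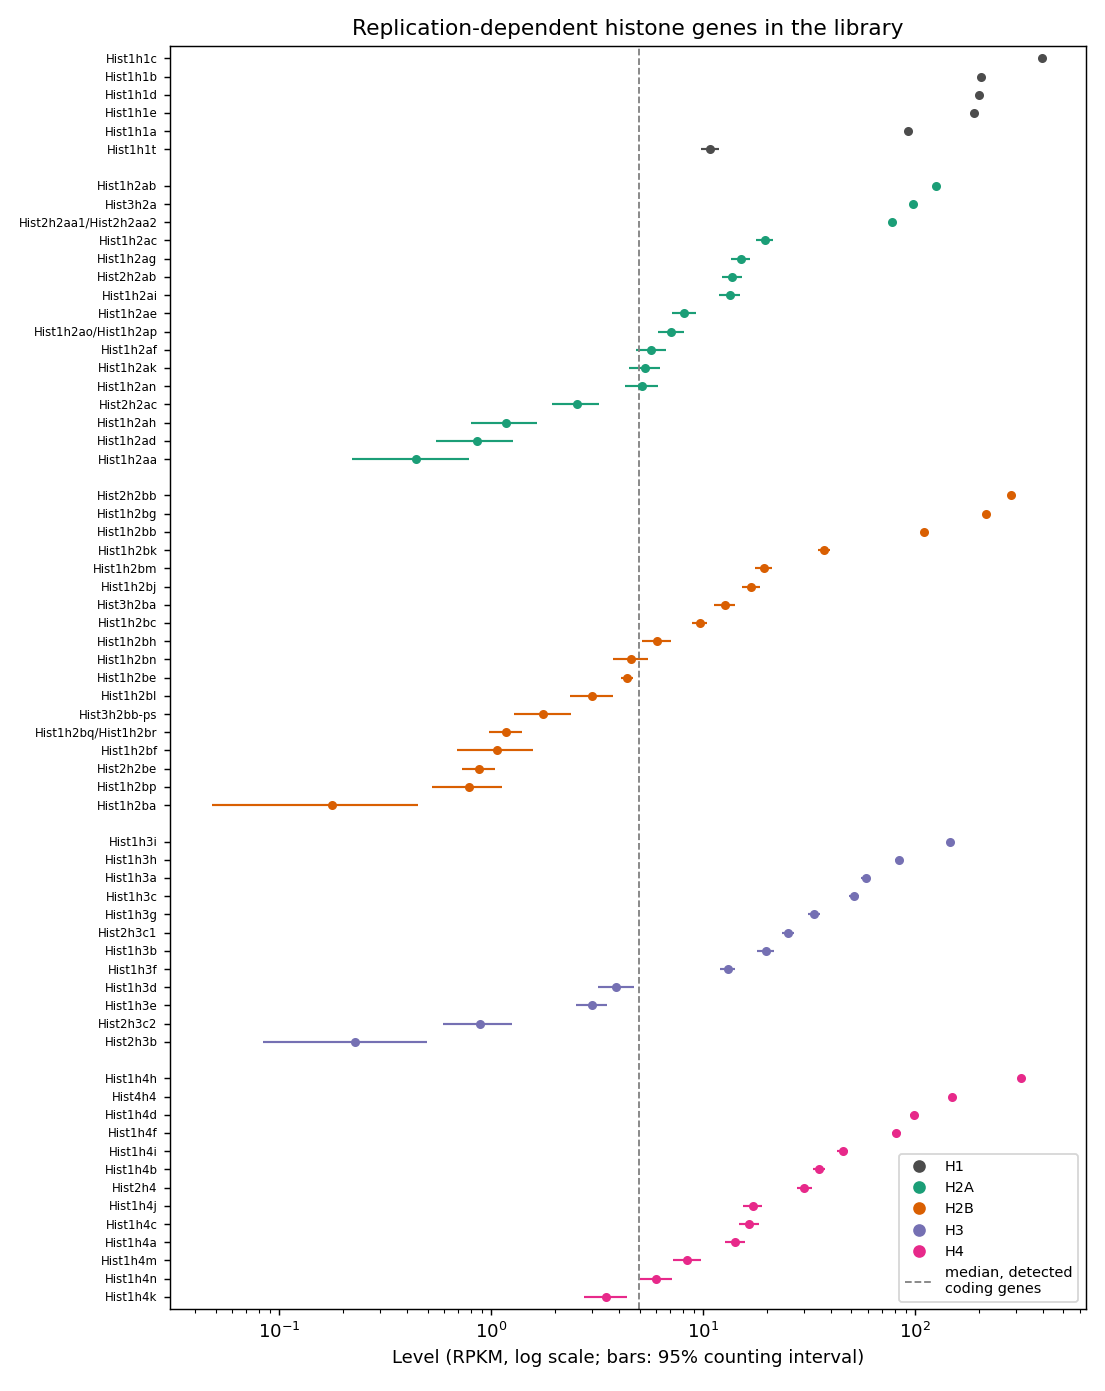
Level of each replication-dependent histone gene in the library, grouped by type and ordered within it. Points are RPKM on a log axis, bars are 95% Poisson intervals for counting error, and the dashed line is the median of the coding genes detected, 4.95 RPKM. The members span from 0.176 RPKM (Hist1h2ba) to 398 RPKM (Hist1h1c).

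A few genes carried most of each type. The 10 members with the highest RPKM held 63.9% of the summed level of all 65, and the first 20 held 86.8%. The 3 leading members held 73.3% of the H1 level, 75.4% of H2A, 83.6% of H2B, 65.7% of H3 and 68.6% of H4. The highest member lay 36.9-fold above the lowest in H1, 284-fold in H2A, 1599-fold in H2B, 642-fold in H3 and 90.4-fold in H4.

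Hist1h1c, which encodes H1.2, had the most reads of any member, with 15138 reads, 288 CPM and 398 RPKM (391 to 404). It ranked 127 of 23148 genes by RPKM. With GENCODE lengths it stood at 185 RPKM and rank 228, under Hist2h2bb (365 RPKM), Hist1h4h (292 RPKM) and Hist1h1b (218 RPKM). Hist1h1b (H1.5) had 8500 reads and 204 RPKM, Hist1h1d (H1.3) 8154 reads and 200 RPKM and Hist1h1e (H1.4) 7790 reads and 190 RPKM. With GENCODE lengths these 3 were at 218, 20.9 and 76.9 RPKM, so that their closeness rests on the lengths used. With the lengths used here, the intervals of 1 of the 5 neighbouring pairs in the H1 order overlapped, that of Hist1h1b and Hist1h1d. Hist1h1a (H1.1) followed with 3603 reads and 92.1 RPKM. Hist1h1t, the H1 gene known from testis, was lowest with 416 reads and 10.8 RPKM.

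In H2A, 3 genes stood above the rest. Hist1h2ab had 3307 reads (125 RPKM), Hist3h2a of cluster 3 had 2603 reads (97.6 RPKM) and the pair Hist2h2aa1/Hist2h2aa2 of cluster 2 had 2277 reads (78.0 RPKM). The next, Hist1h2ac, reached 19.5 RPKM with 498 reads. With GENCODE lengths Hist3h2a stood at 23.1 RPKM and Hist1h2ac at 3.82 RPKM. From there the order ran down closely, and 8 of 15 neighbouring pairs had overlapping intervals. Hist1h2aa, a testis H2A gene, was lowest with 11 reads (0.439 RPKM).

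In H2B the leading gene was Hist2h2bb, with 7299 reads and 282 RPKM, followed by Hist1h2bg with 5221 reads (214 RPKM) and Hist1h2bb with 2830 reads (110 RPKM). Hist1h2bk came next with 973 reads (37.1 RPKM). Of the 18 H2B members 14 lay over 10-fold under the highest, and 9 lay above the median of detected coding genes. Hist1h2be had more reads (1018) than Hist1h2bk but 4.36 RPKM, since its annotated exons add up to 4446 bases. Its span also overlaps the long non-coding gene Gm33387, and whether the counting used strand was not stated. Hist1h2ba, known from testis, had 4 reads (0.176 RPKM, 0.0481 to 0.452).

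The leading H2B genes are those whose windows, printed above, hold the octamer. The 6 H2B genes with it had a median of 73.5 RPKM and a range of 0.176 to 282, and 5 of them lay above the median of detected coding genes. The 9 H2B genes or pairs without it had a median of 4.36 RPKM and a range of 0.782 to 16.7. The first 5 with the octamer (Hist2h2bb, Hist1h2bg, Hist1h2bb, Hist1h2bk and Hist1h2bm) are the 5 highest H2B members by RPKM, while Hist1h2ba, also with it, is the lowest. By reads the order differs: Hist1h2be, without it, had 1018 reads against 973 for Hist1h2bk and 489 for Hist1h2bm. Hist1h2bc had 583. The lengths used for Hist1h2be (4446 bases) and Hist1h2bc (1156 bases) are long, and GENCODE lengths leave both levels unchanged. Hist1h2bc (9.61 RPKM), Hist3h2bb-ps (1.76 RPKM) and Hist2h2be (0.871 RPKM) had no matched window and are in neither group. The H2A genes facing them, Hist1h2ac, Hist3h2a and Hist2h2ac, had the octamer in their windows. That of Hist3h2a began 119 bases before its start, within the 172 bases between it and Hist3h2bb-ps. The low member Hist3h2bb-ps therefore also lies beside an octamer. Where the octamer lies for Hist1h2ac and Hist2h2ac was not worked out. The H2B medians leave out all of these facing H2B members. In H2A the medians were 8.13 RPKM for 7 genes with the octamer and 7.07 RPKM for 9 genes or pairs without it, and both ranges overlap. With GENCODE lengths the H2B medians were 72.5 and 3.70 RPKM, and the H2A medians 3.82 and 8.14 RPKM, in the opposite order. The octamer began 48 bases before the start in Hist2h2bb, 59 in Hist1h2bg, 90 in Hist1h2bb, 30 in Hist1h2bk and 25 in Hist1h2bm. The motif was looked at with the levels known, so these values are a description of 1 library.

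In H3 the leading genes were Hist1h3i with 3709 reads (146 RPKM), Hist1h3h with 2141 (83.6 RPKM) and Hist1h3a with 1538 (58.4 RPKM). Hist2h3b was lowest with 6 reads (0.228 RPKM). The 12 genes encode 2 proteins. Those of Hist1h3a, Hist1h3g, Hist1h3h and Hist1h3i have cysteine at position 96, counted without the first methionine, and are known as H3.1. The other 8 have serine there and are known as H3.2. The H3.1 genes held 8246 reads, 69.7% of H3 reads (68.9 to 70.6%), and 73.3% of the H3 level per length, or 81.9% with GENCODE lengths. The 2 classes share sequence: 59.5% of the 50-base stretches of the Hist1h3b transcript also occur in Hist1h3h. The split between them therefore also depends on how shared reads were assigned, which the sources used here do not say. Neighbours in the H3 order overlapped in 1 of 11 pairs.

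All 13 H4 genes encode 1 protein of 103 residues, from coding sequences that are 85.4 to 100% identical. Hist1h4h led with 7212 reads (316 RPKM), followed by Hist4h4, the 1 gene of cluster 4, with 3419 (148 RPKM) and Hist1h4d with 2081 (98.6 RPKM). Hist1h4f reached 81.1 RPKM. With GENCODE lengths Hist4h4 was at 22.7 and Hist1h4d at 34.8 RPKM, under Hist1h4f at 79.5 RPKM, while Hist1h4h still led. Hist1h4k was lowest with 75 reads (3.49 RPKM), so that transcripts of 1 protein came from genes 90.4-fold apart in level (63.8-fold with GENCODE lengths). Of the 50-base stretches of the Hist1h4k transcript, 28.5% occur at no other locus, and its 75 reads equal those in 1 row of Hist1h4n. The fold therefore also depends on how shared reads were assigned. Of the 13, 12 lay above the median of detected coding genes, and intervals overlapped in 2 of 12 neighbouring pairs.

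By cluster, the genes of cluster 1 on chromosome 13 held 86133 reads, 82.7% of member reads (82.5 to 83.0%), from 52 of the 65 members. Cluster 2 on chromosome 3 held 11612 reads (11.2%) from 9 members, and 62.9% of them came from Hist2h2bb. Its other members were Hist2h2aa1/Hist2h2aa2, Hist2h3c1 with 875 reads (25.1 RPKM), Hist2h4 with 604 (30.0 RPKM), Hist2h2ab with 337 (13.7 RPKM), Hist2h2be with 122 (0.871 RPKM), Hist2h2ac with 62 (2.52 RPKM), Hist2h3c2 with 30 (0.881 RPKM) and Hist2h3b. Cluster 3 on chromosome 11 held 2953 reads (2.84%), 88.1% of them in Hist3h2a, beside Hist3h2ba with 307 reads (12.7 RPKM) and the pseudogene Hist3h2bb-ps with 43 (1.76 RPKM). Cluster 4 is Hist4h4 on chromosome 6 with 3.28% of member reads. Hist3h2a lies within the span of Trim17, and Trim17 had 2 reads.

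Members of cluster 1 fall into 4 blocks set apart by gaps over 100 kb. The block chr13:23531044-23764412 holds 29 genes and 66636 reads, 64.0% of all member reads, including 5 of the 6 H1 genes. The block chr13:21715711-21837530 holds 18 genes and 16738 reads (16.1%), of which Hist1h1b and Hist1h3i are the highest. The block chr13:22035122-22043658 holds 5 genes and 2744 reads. The last, chr13:23933725-23934913, holds the testis genes Hist1h2ba and Hist1h2aa with 15 reads together. Neighbours in a block could differ widely: Hist1h2bf (25 reads) and Hist1h2ad (24 reads) lie next to Hist1h2bg (5221 reads).

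**Figure D2:**
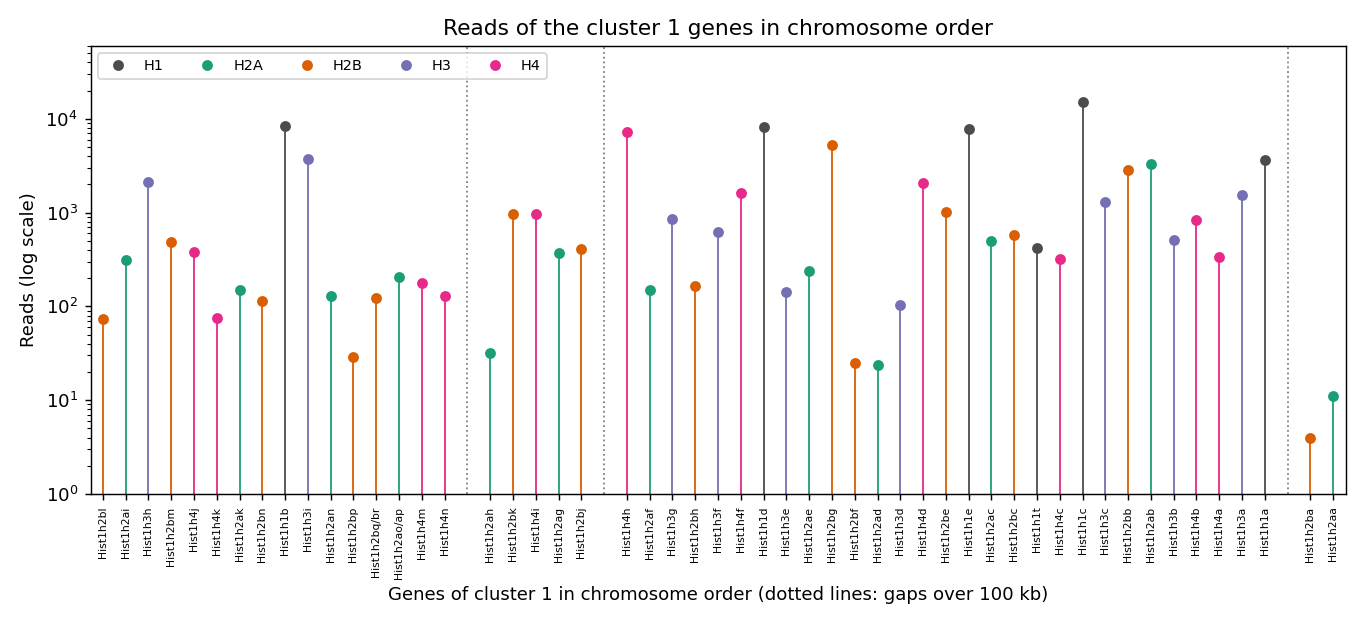
Reads of the members of cluster 1 in chromosome order, 1 stem for each, coloured by histone type, on a log axis from 1 read. Dotted lines mark gaps over 100 kb; the block on the right holds the testis genes Hist1h2ba and Hist1h2aa with 4 and 11 reads, while the highest stem is Hist1h1c with 15138 reads.

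Many H2A and H2B genes lie head to head and share the stretch between their starts. By position there are 13 such pairs, with 163 to 280 bases between the genes, and 12 of them have values of their own. Per length, 3 of the 12 pairs lay within 2-fold, and 3 differed by more than 10-fold. H2A was the higher gene in 8 pairs and H2B in 4, or 6 and 6 by reads, and the median difference was 3.69-fold.

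The closest pair was Hist1h2ag (15.1 RPKM) with Hist1h2bj (16.7 RPKM). Hist1h2ak and Hist1h2bn had 5.30 and 4.54 RPKM, and Hist1h2ad and Hist1h2bf 0.855 and 1.06 RPKM. At the other end, Hist3h2a lay 55.4-fold above the pseudogene Hist3h2bb-ps across 172 bases, or 13.1-fold with GENCODE lengths. Hist1h2bk (37.1 RPKM) lay 31.7-fold above Hist1h2ah (1.17 RPKM) across 177 bases, and Hist1h2bg (214 RPKM) 26.4-fold above Hist1h2ae (8.13 RPKM) across 179 bases. Genes that share 1 short stretch between their starts thus ranged from near equal levels to more than 10-fold apart. Across the 12 pairs Pearson's r of log2(RPKM + 0.5) was 0.19 and Spearman's rho 0.49, a description over pairs of 1 library that share sequence with one another. The H2B members Hist1h2bc, Hist1h2bp, Hist1h2bq/Hist1h2br and Hist2h2be have longer annotated transcripts, which lowers their level per length: by reads, 6 of the 12 pairs lie within 2-fold.

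**Figure D3:**
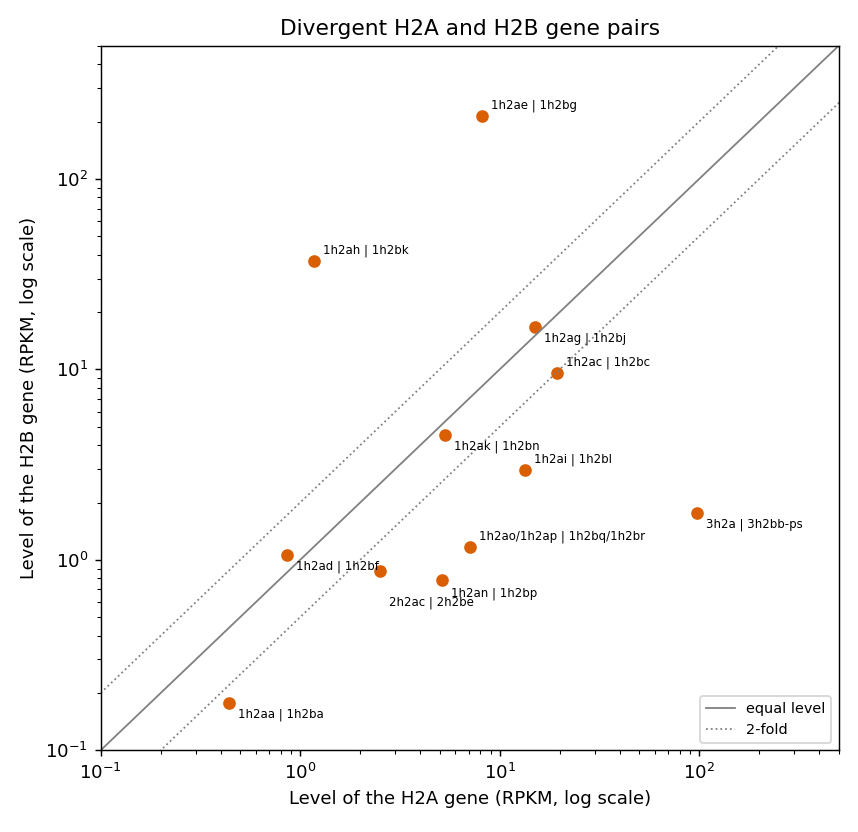
Level of the H2A gene against that of the H2B gene in the 12 head-to-head pairs with values of their own, both in RPKM on log axes, 1 point a pair, named without the leading Hist. The solid line marks equal levels and the dotted lines 2-fold; 3 pairs lie within 2-fold and 3 beyond 10-fold.

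Near-identical copies limit what the rows of single members can say. The measure used was the share of 50-base words of a member's transcript that no transcript of another locus in GENCODE M21 holds. Its median over the 65 members was 44.4%, with 40 members under 50% and 9 under 10%. The transcripts too short for the stem-loop search end at most 2 bases after the stop codon, so sequence beyond it is missing from their words. Of the members under 10%, Hist1h2ah, Hist1h2ai, Hist1h2bq/Hist1h2br and Hist1h3h are among these. The part of this in the shares was not tested. H1 genes were the most distinct type (77.6 to 100%), while H3 genes had a median of 24.7%, H2A 30.8%, H4 48.8% and H2B 48.8%. Hist1h1a, Hist1h1b, Hist1h1t, Hist2h2bb, Hist2h2be and Hist4h4 shared no such word with another locus. Members under 50% held 94.8% of the H3 reads, 71.9% of the H2A reads, 55.6% of the H4 reads and 35.96% of the H2B reads.

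Coding sequences were identical within Hist1h2ao and Hist1h2ap, Hist2h2aa1 and Hist2h2aa2, Hist1h2bq and Hist1h2br, Hist2h3c1 and Hist2h3c2, and Hist1h4m and Hist1h4n. The rows of the first 3 of these pairs held equal values: 205 and 0 reads for Hist1h2ao and again for Hist1h2ap, 0 and 124 for Hist1h2bq and again for Hist1h2br, and 18 and 2259 for Hist2h2aa1 and again for Hist2h2aa2. In each of the 3, 1 row carried nearly all reads. By contrast, Hist2h3c1 and Hist2h3c2 had 875 and 30 reads although their coding sequences are the same, and 97.6% of the words of Hist2h3c1 also occur in Hist2h3c2. Hist1h4m had 179 reads, and Hist1h4n had 75 and 53 in its 2 rows, the first of which equals the 75 reads of Hist1h4k. Both were kept, so the same reads may be counted under both genes in the H4 and member sums. The sources used here do not say how the authors assigned reads that fit several copies. The split within these pairs is therefore uncertain.

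The relation between level and distinctness is given as a description over members, which share library and sequence. Over all 65 members Pearson's r between the share of unique words and log2(RPKM + 0.5) was 0.29 and Spearman's rho 0.29. In H4 they were 0.62 and 0.69 (13 genes), in H2B 0.15 and 0.10 (18), in H3 0.11 and 0.10 (12) and in H2A -0.02 and -0.04 (16). Members with 75% or more unique words had a median of 94.9 RPKM (14 members), and those under 25% a median of 7.07 RPKM (19 members). With GENCODE lengths these medians were 21.8 and 8.14 RPKM, and the H4 coefficients 0.22 and 0.34. The part of shared sequence in these levels was not tested.

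**Figure D4:**
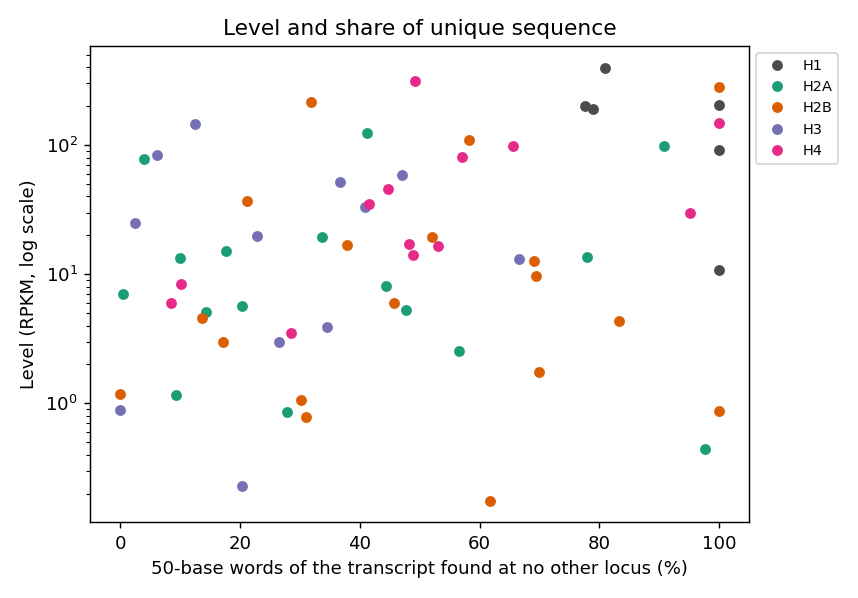
Level of each member in RPKM on a log axis against the share of its 50-base words found at no other locus, 1 point a member, coloured by type. H1 genes lie at 77.6% and above. H3 genes lie mostly under 50%, among them Hist1h3i at 146 RPKM, whose reference transcript ends at the stop codon.

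All 11 replication-independent variants were detected, counting H2afx, after whose stop codon a stem-loop was found. H1f0 (H1.0) had 7169 reads (59.6 RPKM), H3f3b, which encodes H3.3, 7404 (47.4 RPKM), H2afx (H2A.X) 2453 (34.3 RPKM), H2afy (macroH2A) 5515 (15.4 RPKM), H2afz (H2A.Z) 1277 (13.7 RPKM) and H2afv 1107 (12.9 RPKM). Cenpa, the centromere H3, had 2611 reads (8.49 RPKM), H2afy2 953 (8.35 RPKM), H2afj 365 (3.80 RPKM), H3f3a 648 (3.52 RPKM) and H1fx 172 (3.09 RPKM). By median the members and the variants lay close: 14.1 RPKM for the 65 members and 12.9 RPKM for the 11 variants, a difference of 0.12 in the medians of log2(RPKM + 0.5). That difference was -0.45 with GENCODE lengths for every gene and -2.06 with the shortest coding transcript, so its direction rests on the lengths used. The members' mRNAs are known to lack a poly(A) tail, so how RNA was selected for the library can bear on their levels beside polyadenylated mRNAs. Its part here and beside the other lists was not tested.

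By sum the members were higher in each type that has variants in the list. The 16 H2A members held 4.50 times the summed RPKM of the 6 H2A variants, the 12 H3 members 7.38 times that of the 3 H3 variants, and the 6 H1 members 17.5 times that of the 2 H1 variants. With the shortest coding transcript as the length these ratios were 1.56, 1.76 and 8.70. In reads, H2A members and variants were close (10708 and 11670), as were H3 members and variants (11823 and 10663).

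The genes known to make and end these mRNAs were all detected, 16 of 16. Ncbp1, part of the cap-binding complex, was highest with 26.4 RPKM, followed by Lsm10 of the U7 snRNP with 22.5 RPKM and Ncbp2 with 21.8 RPKM. Npat had 17.8 RPKM, Casp8ap2 (FLASH) 8.59 RPKM, Slbp 5.01 RPKM and Lsm11 4.25 RPKM. Zfp473, a zinc finger protein of the U7 complex, was lowest with 48 reads (0.0911 RPKM), and Pou2f1 had 2.88 RPKM. The U7 RNA row, Rnu7, was listed at 0 reads, which allows up to 3 reads. Other short RNAs without poly(A) tails were present, Rmrp with 4157 CPM and Rpph1 with 1790 CPM, while Terc had 23 reads. Rnu7 is shorter, at 62 bases against 275 for Rmrp and 325 for Rpph1. The part of length in its count was not tested.

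All 15 histone chaperones, proteins that escort histones to and from DNA, were detected, led by the FACT subunit Ssrp1 (86.5 RPKM), Rbbp7 (61.1 RPKM) and Nap1l1 (43.4 RPKM), with Chaf1a lowest (2.86 RPKM). All 18 genes of S phase and its start were detected, led by Rrm1 (66.2 RPKM), Rrm2 (42.9 RPKM) and Mcm4 (40.9 RPKM), with Cdt1 lowest (3.32 RPKM). The leading histone genes lay above the highest gene of any of these lists: Hist1h1c at 398 RPKM and Hist1h4h at 316 RPKM against 86.5 RPKM for Ssrp1. The medians were 11.0 RPKM for the processing list, 13.9 RPKM for the chaperones and 21.9 RPKM for the S phase list, beside 14.1 RPKM for the members. Levels in these lists rest on unions of exons (Rrm1 11012 bases, Slbp 6076), those of most members on RefSeq spans. The medians of these lists were not computed with the shortest coding transcript.

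**Figure D5:**
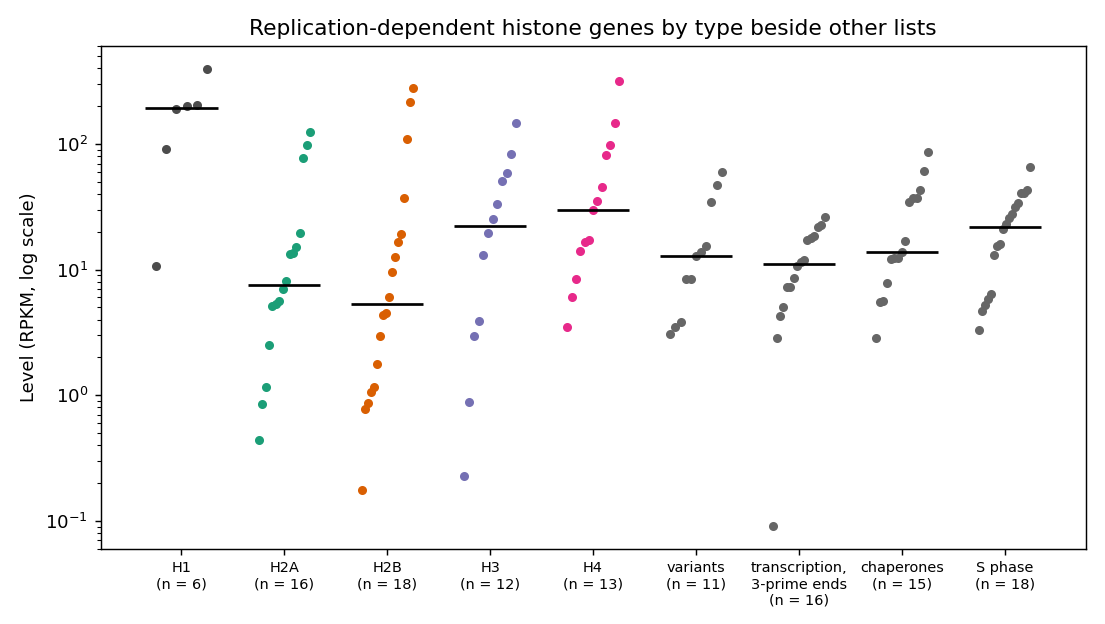
Level in RPKM on a log axis of the members by histone type and of 4 other gene lists, 1 point a gene, ordered within each list, with the median as a horizontal bar. H1 genes have the highest median, and H2A, H2B and H3 each hold members under 1 RPKM. The lowest point of all is Zfp473 at 0.0911 RPKM, in the transcription and 3-prime end list.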

How the data were processed

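The deposited table gives 1 value for each of 24214 gene rows of 1 library, a signal that the authors had normalized by a library-wide factor. The values above 0 are whole multiples of 1.18 within a tolerance of 0.006 reads, so whole reads were recovered with a size factor of 0.850, and the step search was tested on simulated data at 3 factors, where it recovered 100% of 24214 rows. The submitters' processing notes name DESeq and mm10, without versions; the sources used here do not give aligner, counting tool or strand setting. A count test needs replicates and was not run.

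Levels are reads per 1000000 reads (CPM) and, between genes, per kilobase (RPKM). Lengths are RefSeq GRCm38.p6 spans for intronless genes and unions of GENCODE M21 exons for the others; the plan named unions for all, and the change was made after the lengths were seen. Of 68 symbols, 67 matched RefSeq by accession and 1 by synonym. Intervals are 95% Poisson or Clopper-Pearson. A gene counted as detected at 10 reads, and the floor for a count of 0 is 3 reads. Members and lists were chosen with earlier results of these data known. Named are, per type, the 3 highest members and the lowest, members outside cluster 1, near-identical pairs, all variants, and the 3 highest and the lowest of other lists; further genes were named after their values were seen. The tools were biopython 1.88, matplotlib 3.10.9, scipy 1.17.1, pandas 2.3.3 and numpy 2.4.6 under Python 3.11.15.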

Additional observations from a re-analysis of the deposited data

How the results depend on the processing

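No paired analysis was possible because there is 1 library and no result comes from a test. The per-length shares of the 5 types moved with the length rule. In the order H1, H2A, H2B, H3 and H4 they were 22.6, 12.0, 28.4, 16.4 and 20.6% with the shortest coding transcript, and 22.7, 12.0, 28.1, 16.4 and 20.7% with the GENCODE exon union for every gene, an alternative chosen after seeing the data. With lengths less 49 bases H1 was at 30.5% and H4 at 24.2%. Without its most abundant member each type fell to 22.6, 8.16, 13.9, 8.77 and 15.95%, and cluster 1 to 77.5% from 80.0%. Without the 9 members under 10% unique words the shares were 33.6, 9.16, 22.2, 10.1 and 24.97%, and cluster 1 was at 81.9%. With each deposited row kept on its own, also chosen after seeing the data, they were 30.8, 13.5, 20.4, 12.3 and 23.0%, and cluster 1 was at 78.5%.

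The median difference between members and variants was 0.12 and turned to -2.06 with the shortest coding transcript and -0.45 with the GENCODE union. Members over variants gave 1.56, 4.84 and 3.62 for H2A with the shortest transcript, lengths less 49 bases and the union, 1.76 and 8.05 for H3 with the first and second of these, and 8.70, 18.3 and 8.70 for H1. With the shortest transcript 25 members, not 47, lay above the median of detected coding genes. Counts of members with at least 10 reads, or under 50% unique words, stayed within 1.5 times of the values given at 1 or 50 reads and at words of 36 or 75 bases. Depth limits the lowest members: a count of 4 reads has a 95% interval from 0.0481 to 0.452 RPKM for Hist1h2ba.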
